A study of Arabidopsis thaliana with 6 samples.

Results

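Serine carboxypeptidase-like (SCPL) genes were compared between wild-type embryos of Arabidopsis thaliana and dcl1-15 homozygotes, which carry a mutant form of DCL1, the gene of the enzyme that cuts microRNAs from their precursors. The genes described are those whose symbol is SCPL with a number from 20 to 39 and that had a probe set (a group of array probes read as 1 value) naming a single gene. This gave 9 genes with 1 probe set each, out of 17122 probe sets tested, of which 9631 name a single gene. They are scpl20, scpl23, scpl25, scpl26, SCPL27, scpl29, SCPL34, scpl35 and scpl38. RefSeq's table for the TAIR10.1 assembly holds 20 genes with a number in this range. There was 1 further probe set that names several genes, with at least 1 from this range. It was left out because its signal cannot be assigned to 1 gene.

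The study used 6 single-colour arrays, 3 per genotype. Each wild-type sample pooled 300 DCL1/DCL1 embryos at the torpedo stage, when the cotyledons elongate, from plants that segregated from a DCL1/dcl1-15 parent. Each mutant sample pooled 300 dcl1-15/dcl1-15 embryos from siliques of DCL1/dcl1-15 plants in which the normal embryos were at the torpedo stage. The genotypes were therefore matched by the stage of normal embryos and not by the mutant embryo's own stage. All plants were of a Ws background crossed 6 to 7 times to Landsberg erecta and grew at 23 °C. The labels name 1 mutant allele, and no treatment was applied to either genotype. No single-gene probe set carries the name DCL1, and its level could not be used to check the genotypes.

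Serine carboxypeptidases are enzymes of the secretory pathway, the vacuole and the cell wall that remove the last amino acid from the carboxyl end of proteins and peptides, using a serine, an aspartate and a histidine in the active site. In germinating cereal grains such enzymes take part in breaking down storage protein. The plant family has also given rise to acyltransferases, among them SNG1 and SNG2 of Arabidopsis, which transfer sinapate from sinapoylglucose. BRS1, which the RefSeq table lists as SCPL24, suppresses a weak mutant of the brassinosteroid receptor BRI1 when it is overexpressed. BRS1, SNG1 and SNG2 were looked for by these names, and no single-gene probe set was found for them.

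Of the 9 genes, 4 rose in dcl1-15 embryos, 2 fell and 3 did not pass the test (limma, Benjamini-Hochberg adjusted p under 0.05 over all probe sets tested). scpl20 rose 5.84-fold, scpl35 4.29-fold, SCPL34 2.69-fold and scpl26 2.47-fold, whereas scpl25 was 2.95-fold and SCPL27 2.43-fold lower. The 6 called genes are 66.7% of the 9, beside 39.1% of all probe sets tested and 38.4% of those that name a single gene. By direction, 44.4% of the 9 genes rose and 22.2% fell, beside 18.3% and 20.8% of all probe sets. In the fit with a replicate block, which pairs same-numbered arrays, 8 of the 9 genes were called, 5 higher and 3 lower, beside 49.2% of all probe sets. All 6 genes called without the block changed by at least 2-fold, and 22.7% of all probe sets were both called and changed by that much. With values under log2 of 4 raised to 4, SCPL34 and SCPL27 differed by 1.59-fold and 1.06-fold and were not called, which left 4 called genes beside 24.3% of all probe sets. The 3 values of each genotype did not overlap for 7 of the 9 genes, the 6 called and scpl29, beside 52.5% of all probe sets. The median of the log2 differences (dcl1-15 minus wild type) was 1.31 over the 9 genes and -0.07 over all probe sets. The median size of the difference, whatever its sign, was 1.43 over the 9 genes and 0.50 over all probe sets. With a test that borrows no spread from other probe sets in place of limma, only scpl25 of the 9 genes was called, and 2082 probe sets in all, against 6702. In whole embryos, fewer cells of a type and less RNA per cell cannot be told apart.

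**Figure D1:**
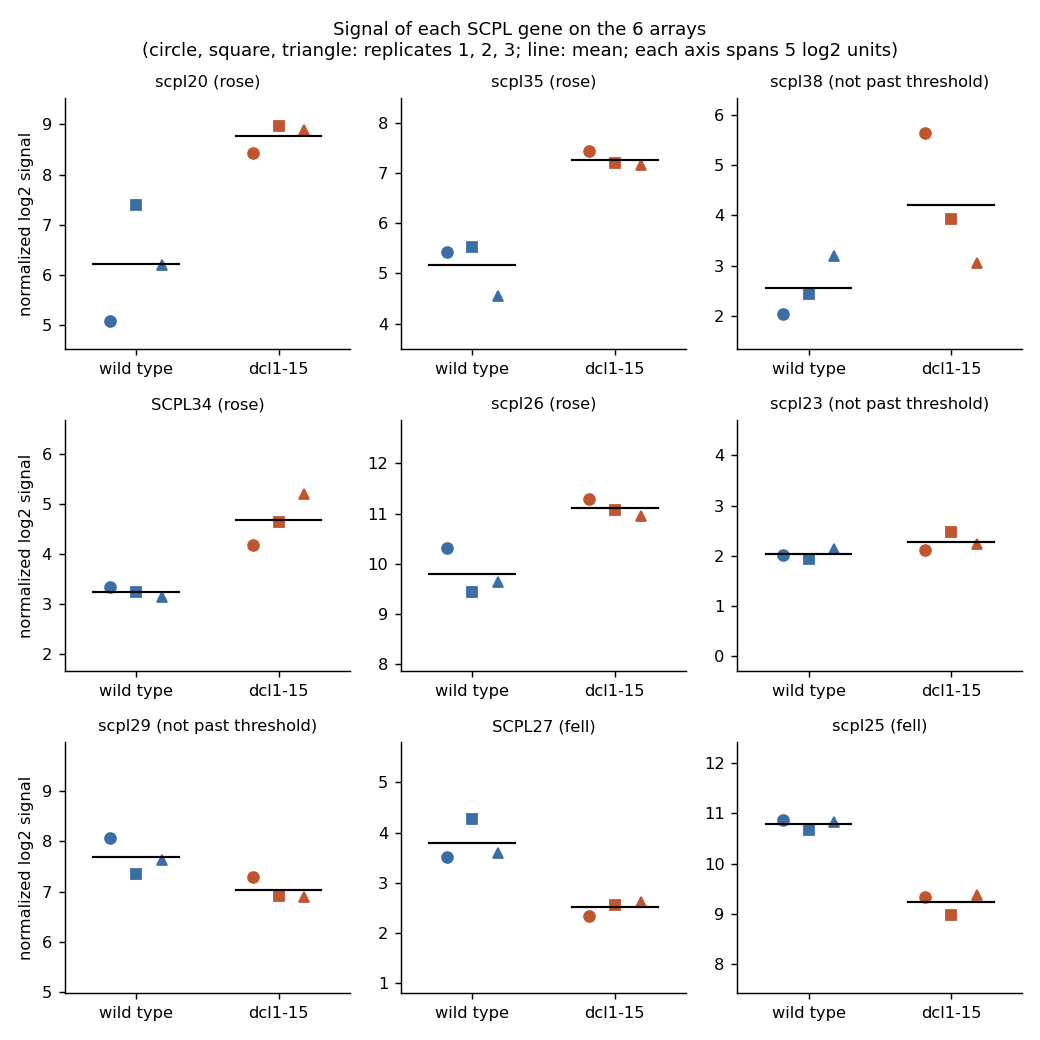
Normalized log2 signal of each of the 9 SCPL genes (vertical axes, each spanning the same number of log2 units) on the wild-type (blue) and dcl1-15 (orange) arrays; symbols give replicates 1, 2 and 3 and lines the means of 3 arrays. The mutant arrays lie above all wild-type arrays for scpl20, scpl35, SCPL34 and scpl26 and below them for scpl25, SCPL27 and scpl29.

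The largest rise was that of scpl20 (AT4G12910). Its normalized log2 signal was 5.08, 7.38 and 6.19 on wild-type arrays 1, 2 and 3, and 8.44, 8.96 and 8.89 on the dcl1-15 arrays. The wild-type arrays were far apart and the mutant arrays close together, and the highest wild-type array stayed below the lowest mutant one. The means were 6.22 ± 1.15 and 8.77 ± 0.29 (SD, n = 3 arrays each), a difference of 2.55 ± 0.50 (SE; limma adjusted p = 0.00450). The 95% interval of the fold ran from 2.65 to 12.9. Of all probe sets tested, 2.12% had a larger rise and 97.7% had a smaller spread within the genotypes. Leaving out wild-type array 1 gave 3.94-fold and leaving out wild-type array 2 gave 8.75-fold.

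The genes whose pattern over the 6 arrays was most like that of scpl20 were AT5G47330, AT4G24130 and DELTA-VPE. Likeness was the root mean square difference of the log2 values after subtracting each gene's own mean, which was 0.15, 0.23 and 0.24 in the same order. DELTA-VPE encodes a protease of the inner seed coat and is on the list of seed coat markers. It measured 7.23, 9.77 and 8.58 on wild-type arrays 1, 2 and 3 and 10.40, 10.68 and 10.93 on the mutant arrays. Its order over the wild-type arrays, with array 2 highest and array 1 lowest, is that of scpl20, which follows from the choice of like genes. Of all probe sets, 20.8% had that order.

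The other seed coat markers were measured beside it. Of 11 listed markers 4 were measured and 3 rose, DELTA-VPE, BAN and DFR, beside 18.3% of all probe sets. DELTA-VPE was also picked for its likeness to scpl20, so its rise follows from that choice. Several of the listed seed coat, endosperm and embryo markers had been used before on these data and are not independent evidence. BAN and DFR encode enzymes of tannin and flavonoid synthesis. The mean log2 signal of the 4 ran from 4.52 to 6.12 on the wild-type arrays and from 6.36 to 7.09 on the mutant arrays. BAN, at 1.53, 3.65 and 2.56 on wild-type arrays 1, 2 and 3, and DFR, at 6.60, 8.56 and 7.98, had the same wild-type order as scpl20. On the mutant arrays DELTA-VPE, BAN, DFR and scpl20 were all lowest on array 1. There scpl20 was highest on array 2 and the markers on array 3. The fourth marker, AT5G26630, had the opposite wild-type extremes, at 2.75, 2.50 and 2.54 on arrays 1, 2 and 3. It lay between 2.26 and 2.75 on all arrays, near the low end of the scale, and no marker was listed at 0. BAN was also under log2 of 4 on every wild-type array. Of 10 endosperm markers 2 were measured, SWEET11, a sugar transporter gene, and AT1G71250. Both rose, beside 18.3% of all probe sets, with a mean of 9.32 to 9.87 on the wild-type and 10.91 to 10.96 on the mutant arrays. Their wild-type means were 9.87, 9.32 and 9.49 on arrays 1, 2 and 3, and each of the genes was highest on array 1, where scpl20 was lowest. The embryos had been dissected from the ovules, and the part of the surrounding tissues in the rise of scpl20 was not tested. Of 13 embryo markers 5 were measured and all were called, beside 39.1% of all probe sets. The storage protein gene PAP85 and the oleosin gene OLEO3 rose. The shoot and organ genes CLV3 and YAB3 and the embryo factor gene BBM fell, with CLV3 under log2 of 4 on every array. YAB3 had a wild-type mean of 10.82 ± 0.30, and OLEO3 one of 12.23 ± 0.21 (SD, n = 3).

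**Figure D2:**
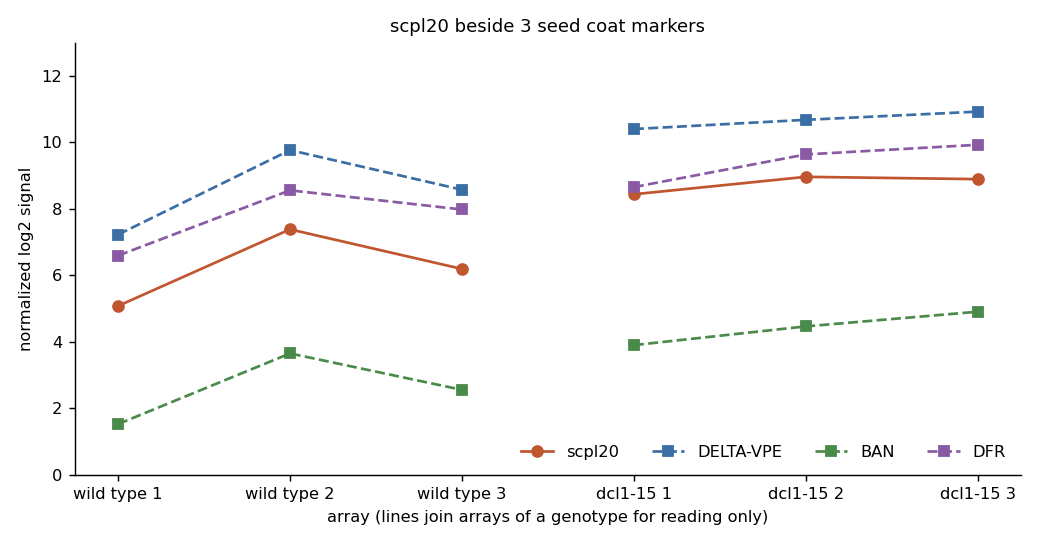
Normalized log2 signal of scpl20 and of the seed coat markers DELTA-VPE, BAN and DFR (vertical axis) on each of the 6 arrays (horizontal axis); lines join the arrays of 1 genotype for reading only. In wild type these 4 genes are lowest on array 1 and highest on array 2, with scpl20 at 5.08 and 7.38. In dcl1-15 they are also lowest on array 1, but scpl20 is highest on array 2 and the markers on array 3. The marker AT5G26630, not drawn, is highest on wild-type array 1 at 2.75 and lowest on wild-type array 2 at 2.50.

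scpl35 (AT5G08260) had the next largest rise. It measured 5.42, 5.52 and 4.55 on the wild-type arrays and 7.44, 7.21 and 7.15 on the mutant arrays. The groups were clearly apart, and array 3 was the lowest in both genotypes. The means were 5.16 ± 0.54 and 7.26 ± 0.15, a difference of 2.10 ± 0.31 (SE; limma adjusted p = 0.00102), with a 95% interval of 1.41 to 2.80. Of all probe sets, 3.36% had a larger rise.

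scpl26 (AT2G35780) was bright in both genotypes and rose further in the mutant. Its signal was 10.32, 9.43 and 9.64 on the wild-type arrays and 11.29, 11.07 and 10.95 on the mutant arrays. Array 1 was the highest in each genotype, which is the reverse of scpl20. The means were 9.80 ± 0.46 and 11.10 ± 0.18, a difference of 1.31 ± 0.22 (SE; limma adjusted p = 0.00224; 95% interval 0.80 to 1.81). In gene order it stands beside scpl28, which had no single-gene probe set of its own.

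SCPL34 (AT5G23210) rose from low values. It measured 3.34, 3.24 and 3.15 on the wild-type arrays, close together, and 4.19, 4.64 and 5.19 on the mutant arrays. The groups did not overlap, and the spread was wider in the mutant. The means were 3.24 ± 0.09 and 4.67 ± 0.50, a difference of 1.43 ± 0.27 (SE; limma adjusted p = 0.00403; 95% interval 0.81 to 2.05). With values under log2 of 4 raised to 4 the difference was 0.67 and did not pass (adjusted p = 0.143). Over all alternatives its adjusted p ran from 6.85e-05 to 0.143.

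The 4 genes that rose therefore did so by 1.31 to 2.55 on the log2 scale. Their 95% intervals overlap each other, from the 0.80 to 1.81 of scpl26 to the 1.41 to 3.69 of scpl20, and their order was not tested.

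**Figure D3:**
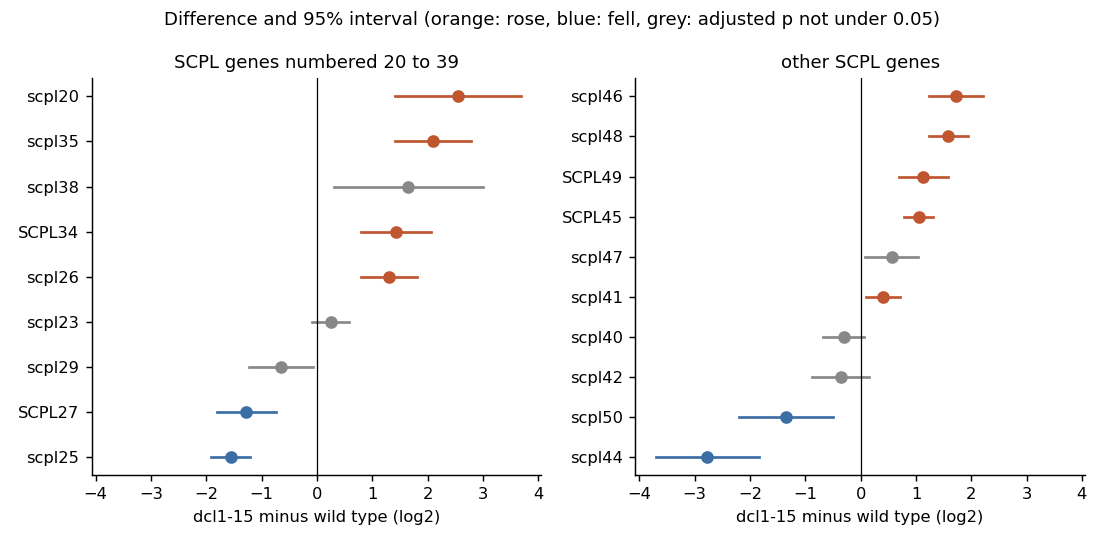
Log2 difference, mutant minus wild type (horizontal axes), with the 95% interval from limma, for the 9 SCPL genes numbered 20 to 39 (left) and the 10 other SCPL genes measured (right), in order of size; colours give the call. In the left panel the values run from -1.56 for scpl25 to 2.55 for scpl20.

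scpl25 (AT3G02110) had the largest fall and the smallest adjusted p of the 9 genes. It measured 10.87, 10.67 and 10.83 on the wild-type arrays and 9.34, 8.98 and 9.37 on the mutant arrays. Both groups were tight and lay far apart, and array 2 was the lowest in both. The means were 10.79 ± 0.11 and 9.23 ± 0.22, a difference of -1.56 ± 0.15 (SE; limma adjusted p = 1.31e-04), with a 95% interval of -1.91 to -1.22. Of all probe sets, 4.40% had a larger fall. It was the 1 gene of the 9 that passed in all 17 alternatives.

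The genes most like scpl25 over the 6 arrays were AT3G54630, TRM82 and AT3G29230, at root mean square differences of 0.05, 0.07 and 0.07. They fell by 1.54, 1.64 and 1.61 on the log2 scale. In gene order the next gene after scpl25 is AT3G02120, which also fell, by 1.24 (limma adjusted p = 0.00128).

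SCPL27 (AT3G07990) fell within the low part of the scale. It measured 3.51, 4.27 and 3.59 on the wild-type arrays and 2.35, 2.56 and 2.62 on the mutant arrays. The groups did not overlap, and 1 of the 6 values was above log2 of 4. The means were 3.79 ± 0.41 and 2.51 ± 0.15, a difference of -1.28 ± 0.23 (SE; limma adjusted p = 0.00321; 95% interval -1.81 to -0.75). With values under log2 of 4 raised to 4 the difference was -0.089 (adjusted p = 0.531). Its adjusted p over all alternatives ran from 3.91e-04 to 0.531.

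3 genes did not pass. scpl29 (AT4G30810) measured 8.07, 7.35 and 7.63 on the wild-type arrays and 7.29, 6.91 and 6.90 on the mutant arrays. The groups were apart by little, with the lowest wild-type array just above the highest mutant one, and array 1 was the highest in both. The difference was -0.65 ± 0.25 (SE; limma adjusted p = 0.0732; 95% interval -1.22 to -0.07). With the replicate number as a block it was called (adjusted p = 0.0221), and over all alternatives its adjusted p ran from 0.0221 to 0.309. The gene before it in gene order, AT4G30800, fell by 1.46 (limma adjusted p = 2.44e-04). The gene after it, AT4G30820, differed by -0.10 and was not called (limma adjusted p = 0.768).

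scpl38 (AT2G05850) had the widest spread of the 9 genes. It measured 2.03, 2.44 and 3.20 on the wild-type arrays and 5.64, 3.93 and 3.05 on the mutant arrays. The groups overlapped, because mutant array 3 lay below wild-type array 3, and mutant array 1 stood highest. Its difference of 1.65 ± 0.59 (SE; 95% interval 0.31 to 2.99) did not pass (limma adjusted p = 0.0536). With values under log2 of 4 raised to 4 it was 0.55 (adjusted p = 0.531), 1.46-fold against 3.14-fold. With the replicate number as a block it passed (adjusted p = 0.0419). Without dcl1-15 array 1 the difference was 0.93, and without dcl1-15 array 3 it was 2.23. Over all alternatives its adjusted p ran from 0.0187 to 0.531.

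scpl23 (AT2G24010) stayed at the low end of the scale. It measured 2.01, 1.93 and 2.14 on the wild-type arrays and 2.12, 2.47 and 2.23 on the mutant arrays, with overlapping groups. The difference was 0.25 ± 0.15 (SE; limma adjusted p = 0.212; 95% interval -0.09 to 0.58), and at these values a probe set has no stated distance from background. Its neighbour in gene order, scpl22, had no single-gene probe set of its own.

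**Figure D4:**
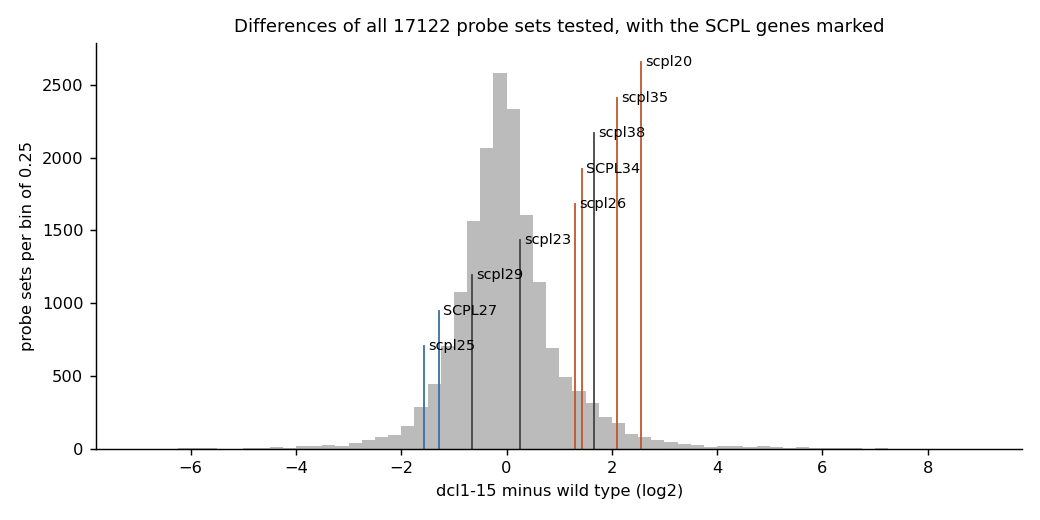
Histogram of the difference dcl1-15 minus wild type (horizontal axis, log2) over all 17122 probe sets tested, with the number of probe sets on the vertical axis and the 9 SCPL genes as vertical lines whose height carries no value. Lines in orange rose, lines in blue fell and dark lines did not pass; scpl20, at 2.55, has 2.12% of probe sets to its right, and scpl25, at -1.56, has 4.40% to its left.

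In the reported fit, calls were not limited to bright or dim genes. Of the 5 genes with a mean of log2 5 or more over the 6 arrays, scpl20, scpl25, scpl26, scpl29 and scpl35, 4 were called, beside 39.8% of all such probe sets. Of the 4 dimmer genes, SCPL27, SCPL34, scpl23 and scpl38, 2 were called, beside 37.9%. Those 2, SCPL27 and SCPL34, were not called with values under log2 of 4 raised to 4 (limma adjusted p = 0.531 and 0.143). Under that setting only the brighter genes scpl20, scpl25, scpl26 and scpl35 were called. The spread within the genotypes had a median SD of 0.35 over the 9 genes and 0.27 over all probe sets, and ran from 0.15 in scpl23 to 1.02 in scpl38. The 9 genes had no common high or low array. Among the wild-type arrays, array 1 was the highest for 4 of them, array 2 for 3 and array 3 for 2.

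The 9 genes lie on 4 of the chromosomes, with scpl23, scpl26 and scpl38 on chromosome 2, scpl25 and SCPL27 on chromosome 3, scpl20 and scpl29 on chromosome 4 and SCPL34 and scpl35 on chromosome 5. Both genes on chromosome 3 fell and both on chromosome 5 rose. On chromosomes 2 and 4, 1 gene each rose and the others did not pass. SCPL27 on chromosome 3 and SCPL34 on chromosome 5 were not called with values under log2 of 4 raised to 4. A pattern by chromosome was not tested. Of the 18 protein-coding genes directly before or after them, 8 were measured by a single-gene probe set and 2 were called, AT3G02120 beside scpl25 and AT4G30800 beside scpl29, where 38.4% of all single-gene probe sets were called.

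The rest of the family was measured through 10 genes out of 34 listed names, all of them numbered 40 or higher. Of these 5 rose, 2 fell and 3 did not pass, with a median difference of 0.48, beside 18.3% of all probe sets higher, 20.8% lower and a median of -0.07. scpl44 fell by 2.77 ± 0.41 (SE; limma adjusted p = 0.00111), while scpl46 rose by 1.73 ± 0.22 and scpl48 by 1.59 ± 0.16. A difference between these genes and those numbered 20 to 39 was not tested.

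Of the other vacuolar, secreted and related proteases 8 of 48 listed names were measured, and 5 rose, 0 fell and 3 did not pass, with a median difference of 0.75. By direction, 18.3% of all probe sets rose. BETA-VPE and ALPHA-VPE, which encode vacuolar processing enzymes that cleave proteins in the vacuole, rose by 3.42 ± 0.12 and 2.47 ± 0.24 (SE). BETA-VPE, the form known for maturing seed storage proteins, measured 8.57, 8.37 and 8.43 on the wild-type arrays and 11.81, 11.85 and 11.95 on the mutant arrays. DELTA-VPE rose by 2.15 ± 0.52 and TPP2, a tripeptidyl peptidase, by 0.96 ± 0.13. DELTA-VPE is also counted among the seed coat markers and the genes most like scpl20, so these counts overlap. GAMMA-VPE, with a difference of 0.30 ± 0.14 (limma adjusted p = 0.124), was among those that did not pass. None of the 22 listed brassinosteroid genes was measured through a single-gene probe set.

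**Figure D5:**
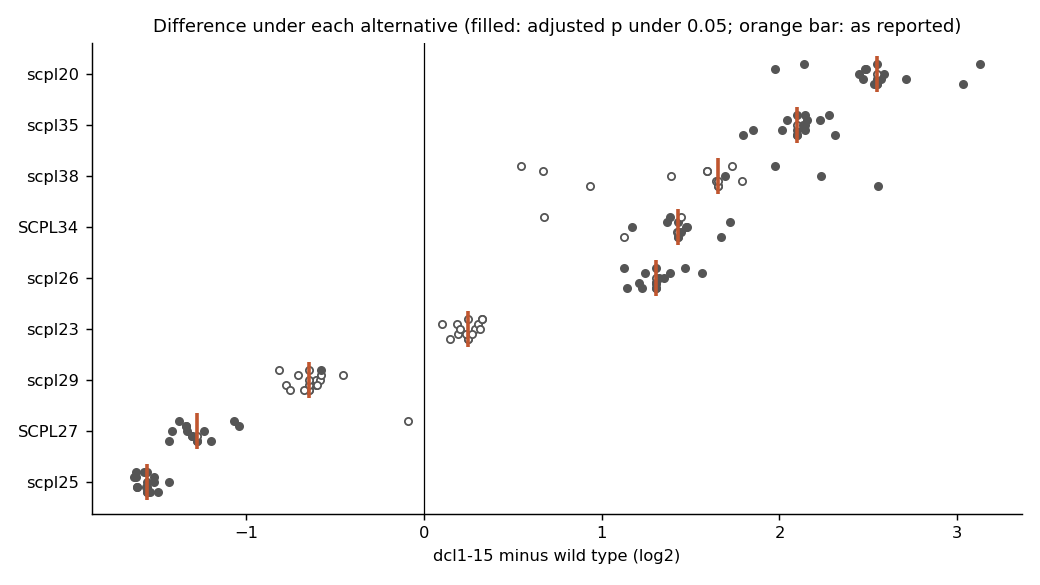
Difference dcl1-15 minus wild type (horizontal axis, log2) of each of the 9 SCPL genes under each alternative way of processing or testing (points, filled where the adjusted p is under 0.05) beside the reported value (orange bar). No point lies on the other side of 0, and the points of SCPL34, SCPL27 and scpl38 nearest to 0 are those with values under log2 of 4 raised to 4.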

How the data were processed

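The authors deposited a table of normalized log2 signals for 17159 probe sets on 6 arrays. RNA (50 ng a sample) was amplified to biotin-labelled cDNA, and the embryos of both genotypes were collected in turn in lots of 10, per the labels' protocols. GCRMA and MAS5 are named, per the submitters' processing notes, without versions or the step each was used for, and what selected the rows of the table is not stated. The number of arrays limits the precision.

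After 37 array control probe sets were set aside, 17122 were fitted in R 4.3.3 with limma 3.58.1, using lmFit and a trended eBayes, two-sided, with Benjamini-Hochberg adjustment over all of them and a threshold of 0.05. The fit was tested on simulated data. The platform annotation named 1 gene for 9631 probe sets, several for 365 and none for 7126, and 9584 of the first were found in the RefSeq table of TAIR10.1, used for names and gene order. Where a listed gene had several probe sets the brightest stood for it. The array medians lay between 6.34 and 6.48. The labels call the samples biological replicates without saying what separates them. The limma p-values therefore set each difference against the spread between these samples, with spread borrowed from other probe sets, and against no wider spread.

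The members and lists were chosen with earlier results of these data known. Named are all members, the 3 genes most like the largest rise and the largest fall, and up to 3 further SCPL genes, 4 proteases and 2 brassinosteroid genes past the threshold with the largest changes. The gene-order neighbours, GAMMA-VPE and the markers were named outside this rule. Deviations from the genotype mean correlated at 0.48, 0.21 and 0.36 between arrays of the same number, each over 0.1, which met the rule for a pairing. The reported fit has no block, and values with the replicate number as a block are given where they change a call. The labels do not explain the numbers, so the pairing rests on the data alone, and the unmatched pair of wild type 2 and dcl1-15 replicate 3 reached 0.31.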

Additional observations from a re-analysis of the deposited data

How the results depend on the processing

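Each of the 9 genes kept its direction in every alternative that gave it a value, and 132 of 148 such values also kept their side of the threshold. With low values raised to a floor of log2 4, scpl23 has no value because it lies below the floor on every array, and the 4 dimmer genes have none among probe sets with a mean of log2 5 or more. With the floor, SCPL34 (0.67) and SCPL27 (-0.089) were not called, and 4161 probe sets were called in all, against 6702. Among the brighter probe sets, where fewer were tested, 4409 were called. Welch's test, which borrows no spread from other probe sets, called 1 of the 9 genes, scpl25, and 2082 probe sets, so scpl20 (2.55), scpl35 (2.10), SCPL34 (1.43), scpl26 (1.31) and SCPL27 (-1.28) lost their calls there at unchanged differences (adjusted p = 0.143, 0.0751, 0.111, 0.0975 and 0.0900). In the fit with a replicate block, which pairs same-numbered arrays, scpl38 (1.65) and scpl29 (-0.65) were also called, 8 of the 9 in all, and no other call among the 9 changed. With arrays centred on their medians scpl38 (1.69) was called. Other causes were not tested.

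With 1 array or both arrays of a number left out, 5 to 7 of the 9 genes were called, and 2493 to 8905 probe sets. The differences ran from 1.12 to 1.72 for SCPL34, which did not pass without both arrays numbered 2 (adjusted p = 0.0661) or both numbered 3 (adjusted p = 0.0543). They ran from 0.67 to 2.55 for scpl38, which passed without wild-type array 3, without dcl1-15 array 3 and without both, and from -0.81 to -0.45 for scpl29, which passed without both arrays numbered 1. Probe sets called numbered 2493 without both arrays numbered 2 and 3151 without both numbered 3. Quantile normalization, centring on the 3 measured reference genes and leaving out the intensity trend changed no call among the 9. Signals near the low end of the scale limit what can be said of scpl23, SCPL27, SCPL34 and scpl38.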
